A study of Mus musculus with 2 samples.

Results

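Integrins are the cell-surface receptors that hold cells to the matrix and to each other, and laminins are the trimeric proteins of the basement membrane that many of them bind. All rows of the deposited gene table with a symbol that begins with Itg, or that is Lama, Lamb or Lamc followed by 1 digit, were taken, which gave 42 of 32285 genes. They are 27 integrin chains, 11 laminin chains and 4 genes named after integrins that are not chains (Itgb1bp1, Itgb1bp2, Itgb3bp and Itgbl1). They were measured by droplet single-cell RNA sequencing of 3' ends in subcutaneous tumours of the mouse colorectal carcinoma line CT26, in 5-week-old BALB/c mice labelled wild type. In the WQ-2101 group mice received the compound, an inhibitor of the serine synthesis enzyme PHGDH, at 20 mg/kg into the peritoneum each day, from the time tumours reached about 100 mm³. The vehicle group received vehicle on the same plan, and tumours of both groups were taken on day 17. There was 1 library per group, of an unstated number of mice, so no difference below has a replicate error or a test, and all intervals cover counting error only.

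An integrin is a pair of 1 alpha and 1 beta chain, and the pair sets what the cell can grip: collagens, fibronectin, laminins, or counter-receptors on other cells. Leukocytes use beta2 and beta7 integrins to stick and migrate, whereas epithelial cells use the alpha6-beta4 pair to anchor to laminin in hemidesmosomes. The alphaV-beta8 pair on regulatory T cells is known for releasing active TGF-beta from its latent form. A laminin needs 1 alpha, 1 beta and 1 gamma chain, and the alpha chain carries the main binding sites for cells.

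The stretches before the RefSeq starts of Itgb7 and Itgax are shown because these members were past 1.5-fold in the tumour or macrophage class, and that of Itgam because it encodes the myeloid chain next to Itgax on chromosome 7. Each run is the 150 bases before the RefSeq start, read 5′ to 3′ on the gene's strand in GRCm38.p6, and capitals mark GAGGAA on either strand (TTCCTC in the reverse sense), the core that PU.1, a myeloid transcription factor, is known to bind.
Itgb7 (chr15:102231936-102232085, minus strand): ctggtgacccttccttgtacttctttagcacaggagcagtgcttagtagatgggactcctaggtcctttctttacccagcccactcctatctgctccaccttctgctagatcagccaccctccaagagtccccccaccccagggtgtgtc
Itgax (chr7:128129400-128129549, plus strand): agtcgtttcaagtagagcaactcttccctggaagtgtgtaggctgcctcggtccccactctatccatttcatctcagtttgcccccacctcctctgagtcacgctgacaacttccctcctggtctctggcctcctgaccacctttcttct
Itgam (chr7:128062490-128062639, plus strand): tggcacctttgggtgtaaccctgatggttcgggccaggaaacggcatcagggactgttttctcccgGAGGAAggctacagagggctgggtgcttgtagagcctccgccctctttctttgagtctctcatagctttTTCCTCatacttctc
Itga9 was also past 1.5-fold, but its entry starts inside the annotated gene and is not printed. Itgam held 2 matches, and Itgb7 and Itgax held 0. Of all 32851 promoters of this length, 4754 (14.5%) held a match. Members were counted by gene and not by promoter: 11 of the 27 with a RefSeq entry held a match in any of their 30 entries. The 2 shares therefore have unlike units. A match is a description of letters and not a binding site.

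The WQ-2101 library held 18142 barcodes and 185587327 UMIs, and the vehicle library 14374 barcodes and 184754398 UMIs. After filters and removal of called doublets, 17293 cells with a median of 8048 UMIs and 13668 cells with a median of 10743 UMIs remained, and 73 barcodes occurred in both libraries. Cells were assigned by marker gates, and 3 classes had at least 100 cells in each library: tumour (8444 and 6629 cells), macrophage and monocyte (3280 and 3763) and T cell (582 and 517), in the WQ-2101 and vehicle libraries. Cells that passed the gates of several classes or carried RNA of another class were 12.7% of the WQ-2101 and 3.48% of the vehicle library and were left out. Doublets called by Scrublet, 4.17% and 3.83% of cells, had been removed before. An unnamed cluster held 2888 WQ-2101 and 114 vehicle cells, of which 21.6% passed the tumour gate. Cells near the cut of their gate were 462 and 256 in tumour, 179 and 254 in macrophage and 2 and 1 in T cells. Levels are CPM, the summed UMIs of a gene scaled to the summed UMIs of its class. A UMI counts a 3' end and is not scaled by gene length, so levels of different genes compare molecules caught, not proteins. Smaller gates were described without a comparison of treatments: NK (53 and 52 cells), dendritic (51 and 62), neutrophil (67 and 160), fibroblast (53 and 147), mural, the contractile cells of vessel walls (17 and 18), and endothelial (11 and 39). The B cell gate held 289 and 12 cells and was not ranked, because 1 UMI was worth over 20 CPM in its vehicle part. The mural gate also carried summed fibroblast markers at 1447 and 2456 CPM, and the fibroblast gate mural markers at 2259 and 2235 CPM, against 9754 and 10237 CPM of its own.

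Many chains were shared by several cell types. Of the 42 members, 35 reached 20 CPM in at least 1 of the 9 ranked classes in either library. The class of highest level was the same in both libraries for 28 of these 35. Endothelial cells held the peak of Itga2, Itga6, Itga9, Itgb3 and 5 laminin chains, fibroblasts that of Itga5, Itga11, Lama1, Lama2 and Lamb2, mural cells that of Itga1, Itga7 and Itgb1, and tumour cells that of Itga3 and Itgb4, among others. T cells held the peak of Itgal, Itgb7 and Itgb8, dendritic cells of Itga4 and Itgae, neutrophils of Itgam and Lamb3, and macrophages of Itgb2, while NK cells held none. Ratio intervals to the next class include 1 in both libraries for Itga3, Itgal, Itgb1, Lama2, Lama5 and Lamb2. In 1 library they include 1 for Itga2, Itga5, Itgam, Itgb2, Itgb3, Itgb4, Itgb7, Itgb8, Lama3, Lama4 and Lamb1. Itgb2 was level between macrophages and neutrophils in the WQ-2101 library (159.3 and 159.2 CPM, ratio interval 0.595 to 1.83). Its peak there moved to neutrophils with the stricter gate, at least 1000 UMIs per cell, doublets kept, free RNA subtracted or mixed cells added. In Leiden clusters, where 7 classes and no endothelial or mural class could be ranked, Itga4 peaked in T cells in both libraries. Peaks of endothelial and mural cells necessarily fell to other classes there. Itgal was highest in NK clusters of the vehicle library and Itgam in macrophage clusters of the WQ-2101 library. With a mean over cells in place of summed counts, endothelial cells were highest for Itga3 in the vehicle library and for Itgb4 and Itgb1 in the WQ-2101 library, and mural cells for Itga5, Lama2 and Lamb1 in the WQ-2101 library. Lamb3 moved to T cells of the WQ-2101 library with at least 1000 UMIs per cell, and Lama5 to mural cells of the vehicle library with at most 10% mitochondrial UMIs. The 7 members whose highest class differed between the libraries were Itgav, Itgax, Itgb5, Itgb1bp1, Itgb3bp, Itgbl1 and Itgb2l, a beta2-like chain with 3 UMIs in WQ-2101 neutrophils (34.1 CPM) and 0 in vehicle ones. The 7 members under 20 CPM in every ranked class were Itga2b, Itga8, Itga10, Itgad, Itgb6, Itgb1bp2 and Lamc3.

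**Figure D1:**
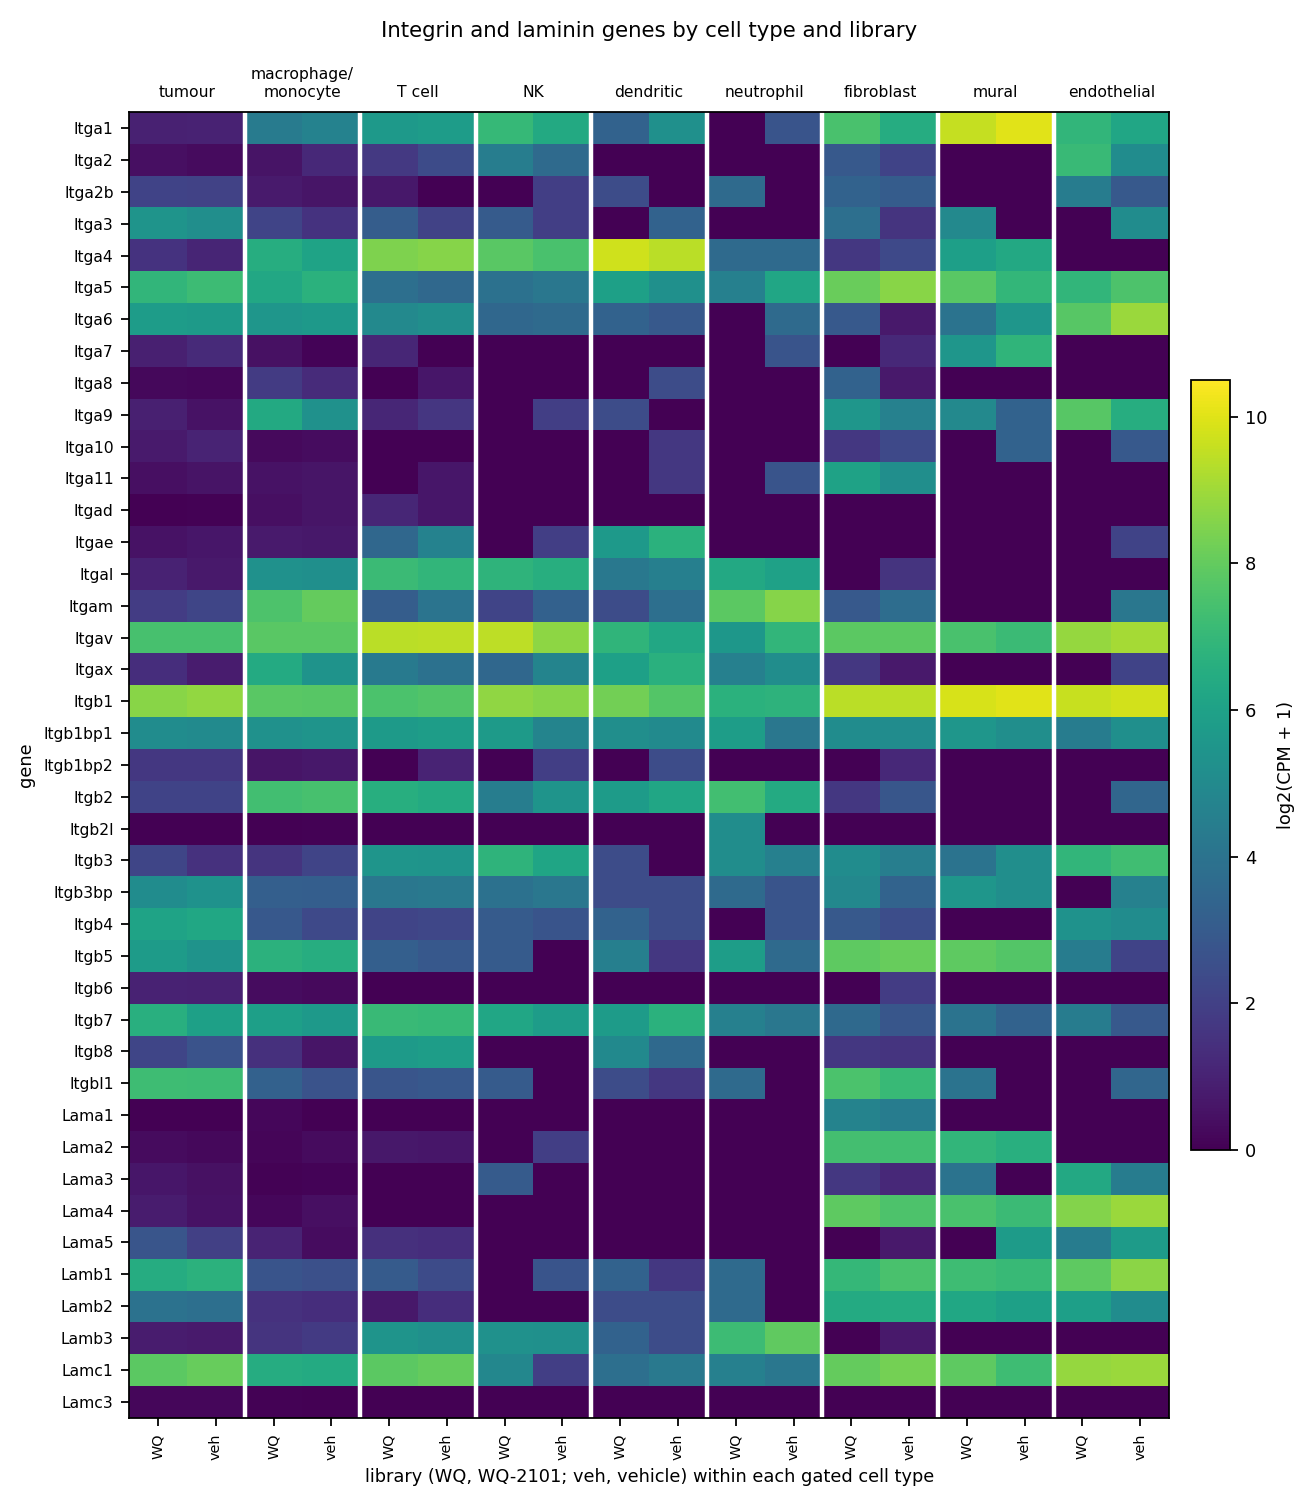
Level of the integrin and laminin genes reported here as log2(CPM + 1) in 9 gated cell types, with the WQ-2101 library (WQ) left of the vehicle library (veh) in each. Itgb1 is high in every class, Itga4 is highest in the dendritic gate, and the laminin alpha rows Lama1 to Lama5 are dark in the tumour, macrophage and T cell columns.

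Itgb1, the beta chain shared by most matrix receptors, was present in every class. It stood at 939.7 CPM in the WQ-2101 and 1037 CPM in the vehicle library in mural cells, at 778 and 891 CPM in endothelial cells, at 682 and 677 CPM in fibroblasts and at 392 and 448 CPM in tumour cells. Its level in macrophages was 225 and 219 CPM and in T cells 185 and 197 CPM. The order of the first 2 classes rests on counts whose ratio intervals include 1 in both libraries (0.797 to 1.85 and 0.928 to 1.45).

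The collagen-binding alpha chains lay in different stromal cells. Itga1, whose pair binds basement membrane collagen, stood at 761 and 1037 CPM in mural cells, against 179 and 90.1 CPM in fibroblasts, the next class. Pelo lies inside Itga1 on the same strand and reached 104 and 79.8 CPM in mural cells, and reads of such overlapping genes are uncertain. Itga1 was also found in NK cells (129 and 82.7 CPM) and T cells (50.7 and 55.5 CPM). Itga11, the receptor for fibrillar collagen on fibroblasts, stood at 64.8 and 35.8 CPM there, from 29 and 54 UMIs, and reached 5.69 CPM at most in any other class. Itga2 peaked in endothelial cells at 140 CPM (7 UMIs) and 33.4 CPM (10 UMIs).

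The laminin-binding alpha chains had their highest levels in tumour cells (Itga3), endothelial cells (Itga6) and mural cells (Itga7). Itga3 stood at 41.7 and 36.0 CPM in tumour cells and at 3.43 and 1.89 CPM in macrophages. The next class was mural in WQ-2101 (29.8 CPM from 2 UMIs) and endothelial in vehicle (33.4 CPM from 10 UMIs), and both ratio intervals include 1 (0.387 to 11.6 and 0.585 to 2.25). Itga6 stood at 54.8 and 51.1 CPM in tumour cells, close to the 45.4 and 49.3 CPM of macrophages and the 29.7 and 35.6 CPM of T cells, and reached 219 and 481 CPM in endothelial cells. Itgb4, the partner of Itga6 in hemidesmosomes, was 67.9 and 76.3 CPM in tumour cells, 6.43 and 3.99 CPM in macrophages and 3.50 and 3.77 CPM in T cells. With every cell thinned to 2000 UMIs, 11.6% of WQ-2101 and 13.5% of vehicle tumour cells had an Itgb4 UMI (49.3% and 63.2% unthinned), against 0.524% and 0.993% of T cells. Itga7, the laminin receptor of muscle, was 44.7 and 115 CPM in mural cells from 3 and 13 UMIs.

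Fibronectin receptors were split by cell type. Itga5, the classical fibronectin receptor chain, stood at 270.4 and 397 CPM in fibroblasts, 119.6 and 145 CPM in tumour cells and 77.0 and 103 CPM in macrophages. Itga4, which binds VCAM1 and fibronectin, stood at 849 and 681 CPM in the dendritic gate, 349.7 and 389 CPM in T cells, 224 and 179.7 CPM in NK cells and 92.4 and 67.0 CPM in macrophages, against 1.94 and 1.12 CPM in tumour cells. It was not limited to leukocytes, with 59.7 and 79.8 CPM in mural cells from 4 and 9 UMIs. The dendritic clusters, of 229 and 250 cells, held Itga4 at 365 and 363 CPM, under the gate by more than 1.5-fold. Itga9, which binds tenascin-C and osteopontin, peaked in endothelial cells (219 and 93.5 CPM, 11 and 28 UMIs), followed by macrophages (83.1 and 38.4 CPM), and was 0.896 and 0.433 CPM in tumour cells. Within macrophages it was a chain of the C1q gate.

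Of the leukocyte beta2 integrin chains, Itgb2, Itgam and Itgal followed their textbook cells. Itgb2, the common chain, stood at 159 and 175 CPM in macrophages and 95 and 84.6 CPM in T cells, against 3.36 and 3.32 CPM in tumour cells. Itgam, the CD11b chain, was 227 and 381 CPM in neutrophils and 187 and 256 CPM in macrophages. The ratio of those classes was 1.22 in WQ-2101 (0.744 to 1.89) and 1.49 in vehicle (1.15 to 1.89). Itgal, the LFA-1 chain, was 139.9 and 120.7 CPM in T cells and 112 and 94.1 CPM in NK cells. Itgax, the CD11c chain, was 61.6 and 101 CPM in dendritic cells and 83.8 and 41.2 CPM in macrophages. Its highest class was the macrophage in the WQ-2101 library, where the ratio interval includes 1 (0.809 to 2.50), and the dendritic cell in the vehicle library. In Leiden clusters dendritic cells were highest for Itgax in both libraries. Itgad stayed at or under 1.17 CPM in every ranked class.

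Beta7 was not confined to lymphocytes. Itgb7, which pairs with Itga4 for gut homing and with Itgae for binding E-cadherin, stood at 138 and 129 CPM in T cells, 73.4 and 54.2 CPM in NK cells, 98.8 and 61.3 CPM in tumour cells, 52.8 and 103 CPM in dendritic cells and 60.0 and 50.3 CPM in macrophages. Itgae, the CD103 chain, was 48.4 and 103 CPM in dendritic cells and 10.49 and 24.2 CPM in T cells. In tumour cells neither known partner was near it, with Itga4 at 1.94 and 1.12 CPM and Itgae at 0.436 and 0.533 CPM.

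The alphaV chain and its beta partners separated T cells by gate. Itgav stood at 709 and 414 CPM in NK cells, 684 and 701 CPM in T cells and 459 and 537 CPM in endothelial cells, against 175 and 173 CPM in tumour cells. NK cells were the highest class in the WQ-2101 library, level with T cells (ratio interval 0.889 to 1.20), and T cells, followed by endothelial cells, in the vehicle library. With a mean over cells T cells were highest in both libraries. Within T cells the regulatory gate, cells with a Foxp3 UMI and no CD8 UMI, reached 2367 CPM (2065 to 2701) in WQ-2101 from 30 cells and 2192 CPM (1947 to 2460) in vehicle from 40 cells. The CD8 gate stood at 619.8 and 478 CPM. Itgb8 showed the sharper contrast, with 514 CPM (379 to 682) and 341 CPM (248.98 to 457) in the regulatory gate, against 1.08 and 6.5 CPM in the CD8 gate. After thinning to 2000 UMIs, all 18 WQ-2101 T cells with an Itgb8 UMI and 23 of the 24 vehicle ones also had an Itgav UMI, and the joint share was 4.71% and 5.71% against 1.96% and 2.73% from the product of the single shares. Itgb7 (321.3 and 258 CPM) and the laminin chain gene Lamc1 (718 and 584 CPM) were also highest in the regulatory gate among the gates of at least 30 cells per library.

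**Figure D2:**
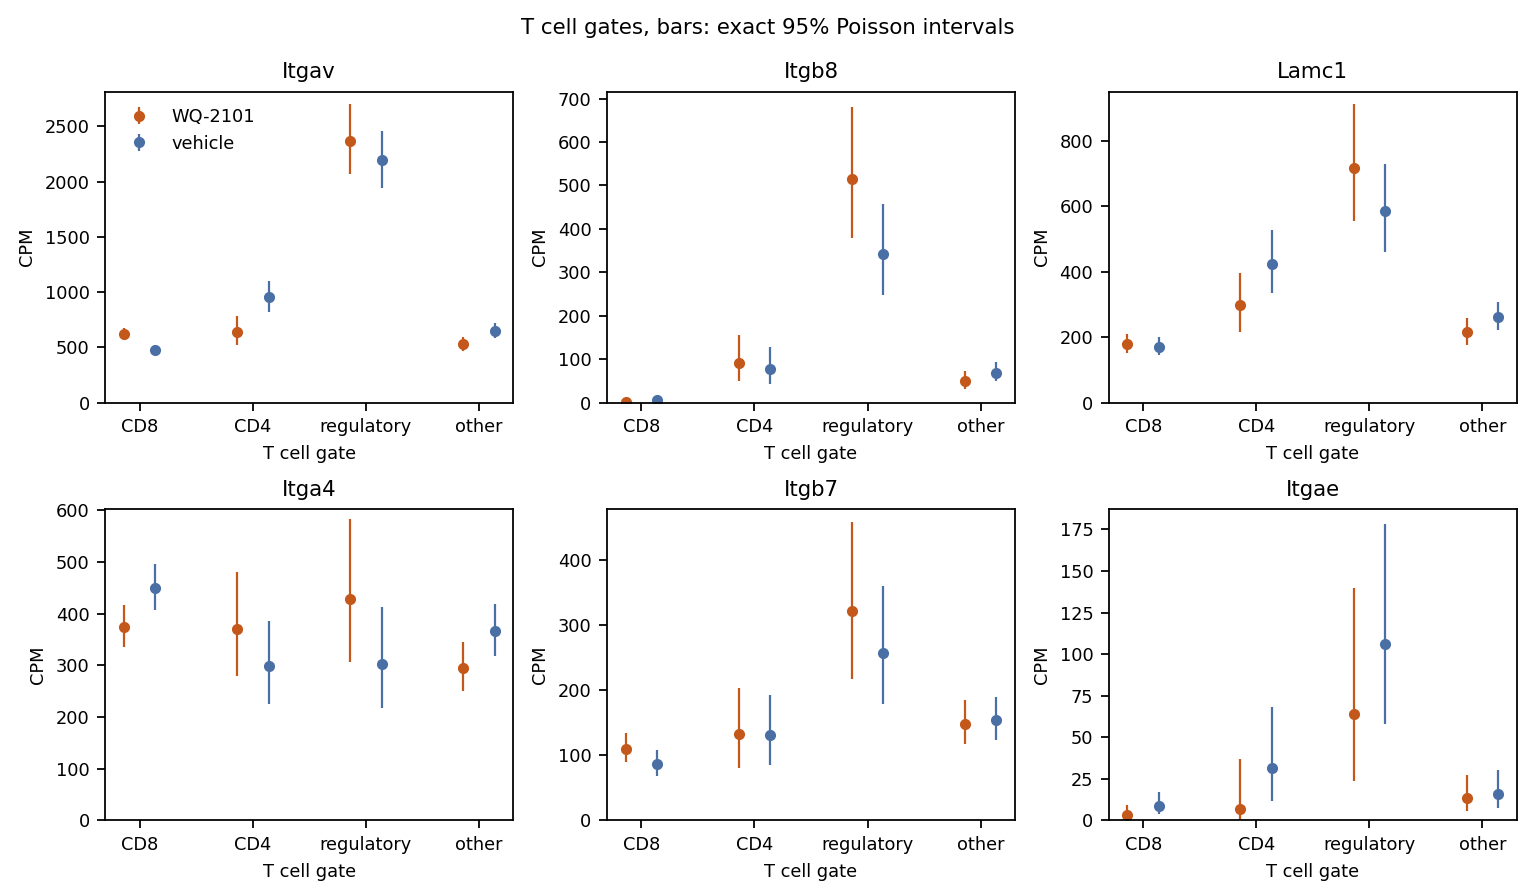
CPM of 6 genes in 4 T cell gates, with WQ-2101 points left of vehicle points and exact 95% Poisson intervals as bars. Itgav, Itgb8 and Lamc1 are highest in the regulatory gate in both libraries, while the Itga4 intervals of the regulatory gate overlap those of the CD4 gate.

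The other beta partners of alphaV were spread over stromal cells, macrophages and lymphocytes. Itgb5, a vitronectin receptor chain, stood at 235 and 267 CPM in fibroblasts, 239 and 204 CPM in mural cells, 107 and 91.8 CPM in macrophages and 53.3 and 41.4 CPM in tumour cells. Itgb3, known from platelets, osteoclasts and vessels, was 119.7 and 154 CPM in endothelial cells, 112 and 71.3 CPM in NK cells and 43.1 and 42.0 CPM in T cells. It was 1.95 and 3.40 CPM in macrophages as a whole, but 154 and 90.7 CPM in the macrophage sub-gate with osteoclast genes, from 4 WQ-2101 and 56 vehicle cells. Itgb6, the epithelial partner, did not pass 2.65 CPM in any ranked class. Of the genes that are not chains, Itgbl1, which encodes a secreted protein with integrin-like repeats, was 150.2 and 145 CPM in tumour cells and 185 and 135 CPM in fibroblasts. Itgb1bp1, whose product binds the beta1 tail, was flat at 33.2 and 31.9 CPM in tumour cells and 51.3 and 56.6 CPM in T cells. Itgb3bp, a centromere gene despite its name, was 33.9 and 39.3 CPM in tumour cells and 7.997 and 7.71 CPM in macrophages.

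Tumour cells carried laminin beta and gamma chains without an alpha chain at a matching level. Lamc1, the common gamma chain, stood at 229 and 262 CPM in tumour cells, Lamb1 at 90.8 and 106 CPM and Lamb2 at 14.7 and 13.2 CPM. The highest alpha chain there was Lama5, at 5.73 and 3.02 CPM, and Lama1, Lama2, Lama3 and Lama4 were each under 1 CPM in both libraries.

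The alpha chains were stromal. Lama4, of the vascular laminins, stood at 379 and 487 CPM in endothelial cells, 237 and 189 CPM in fibroblasts and 179 and 142 CPM in mural cells. Lama2, of the muscle and mesenchymal laminins, was 165 and 159 CPM in fibroblasts and 119 and 97.5 CPM in mural cells, and Lama1 was 24.6 and 20.5 CPM in fibroblasts. Lama3 was 79.8 and 20.0 CPM in endothelial cells, from 4 and 6 UMIs. All chains of laminin-411 (Lama4, Lamb1, Lamc1) reached 20 CPM in endothelial cells, fibroblasts and mural cells of both libraries, and those of laminin-211 (Lama2, Lamb1, Lamc1) in fibroblasts and mural cells. Laminin-511 reached this level in endothelial and mural cells of the vehicle library alone, where Lama5 was 53.4 and 53.2 CPM, against 20.0 CPM from 1 UMI and 0 CPM in the WQ-2101 library.

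Counts of some laminin chains were also found in lymphoid or myeloid cells. Lamc1 stood at 229 and 258 CPM in T cells, level with tumour cells, although Lamb1 was 6.99 and 4.31 CPM and all alpha chains were at or under 1.75 CPM there. Lamb3 was 148 and 244 CPM in neutrophils, 42.0 and 37.2 CPM in T cells and 38.4 and 37.1 CPM in NK cells. The span of Lamb3 overlaps 4930570N18Rik on its own strand and G0s2, Gm37650 and Hsd11b1 on the other. G0s2, which lies within the annotated Lamb3 span on the other strand, was 3037 and 4026 CPM in neutrophils but 2.33 and 0.539 CPM in T cells and 0 CPM in NK cells. The sources used here do not state whether counting used strand, so the neutrophil value of Lamb3 cannot be told apart from G0s2 reads.

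**Figure D3:**
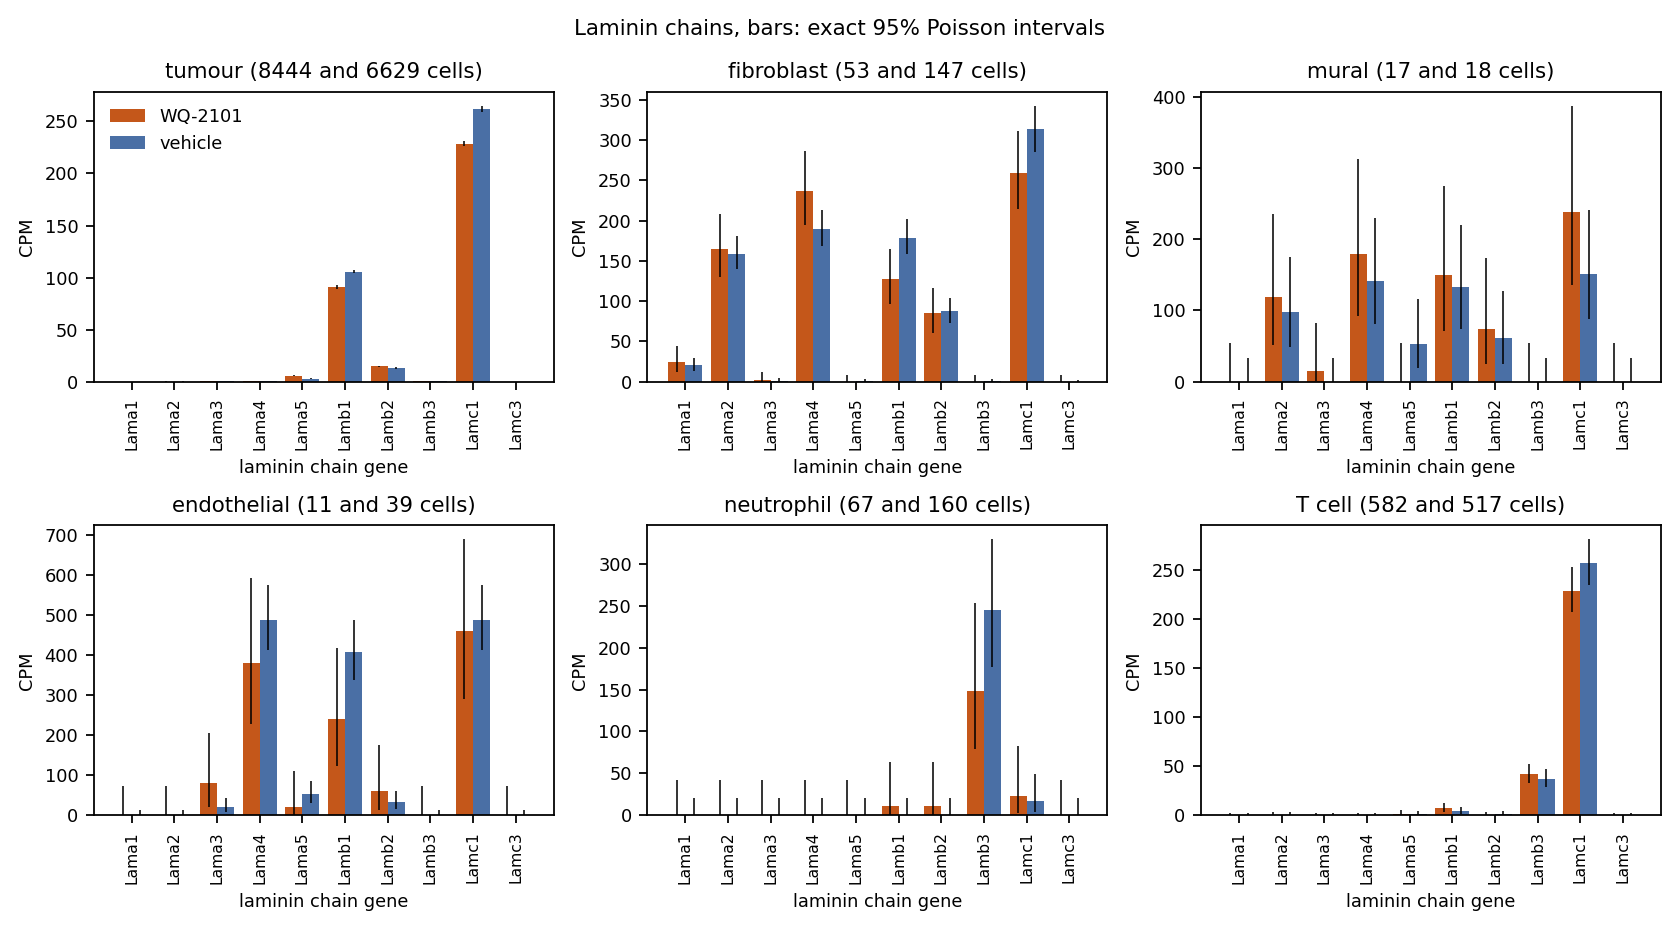
CPM of laminin chains in 6 gated cell types, WQ-2101 bars left of vehicle bars, with exact 95% Poisson intervals. Tumour cells show Lamb1 and Lamc1 with alpha chains near 0, while fibroblasts, mural cells and endothelial cells show Lama2 or Lama4 beside Lamb1 and Lamc1.

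Of 24 known alpha-beta pairs, 19 had both chains at 20 CPM in at least 1 ranked class of both libraries. The alphaV-beta1 pair met this in all 9 classes and alpha5-beta1 in 7. A total of 6 pairs met it in 1 class each: alpha2-beta1 in endothelial cells, alpha3-beta1 in tumour cells, alpha7-beta1 in mural cells, alpha11-beta1 in fibroblasts, alphaE-beta7 in dendritic cells and alphaV-beta8 in T cells. The alpha6-beta4 pair met it in tumour and endothelial cells. The 5 pairs with no such class in either library were alpha8-beta1, alpha10-beta1, alphaD-beta2, alphaIIb-beta3 and alphaV-beta6. In single cells most joint shares named here lay close to the product of the single shares. After thinning to 2000 UMIs, 1.28% of WQ-2101 and 1.38% of vehicle tumour cells had a UMI of both Itga6 and Itgb4, against 1.14% and 1.27% from the product of the single shares. Itgam and Itgb2 were both seen in 8.43% and 12.3% of macrophages, against 7.54% and 11.2%. Thinning left out 136 and 26 tumour cells, 230 and 131 macrophages, and 200 and 114 T cells that were shallower.

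The second question of the design is what differed between WQ-2101 and vehicle. Most members stood at nearly the same level in both libraries. Members were set apart where CPM plus 5 differed 1.5-fold between the libraries. They also needed a mean of at least 5 CPM, which 15 members reached in tumour cells, 19 in macrophages and 23 in T cells. In tumour cells 1 of 15 members was higher and 0 lower, against 0.849% and 0.42% of all genes tested. In macrophages 2 of 19 were higher and 0 lower, against 1.54% and 0.576% of all genes. In T cells 1 of 23 was higher and 2 lower, against 3.55% and 3.53%. In either direction the shares over all genes were 1.27%, 2.11% and 7.07% in tumour cells, macrophages and T cells, so the 3 members in T cells are close to what all genes give, and each class rests on very few members. The median log2 ratio of members was 0.05 in tumour cells, 0.08 in macrophages and -0.03 in T cells, beside -0.01, 0.00 and -0.02 over all genes tested.

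**Figure D4:**
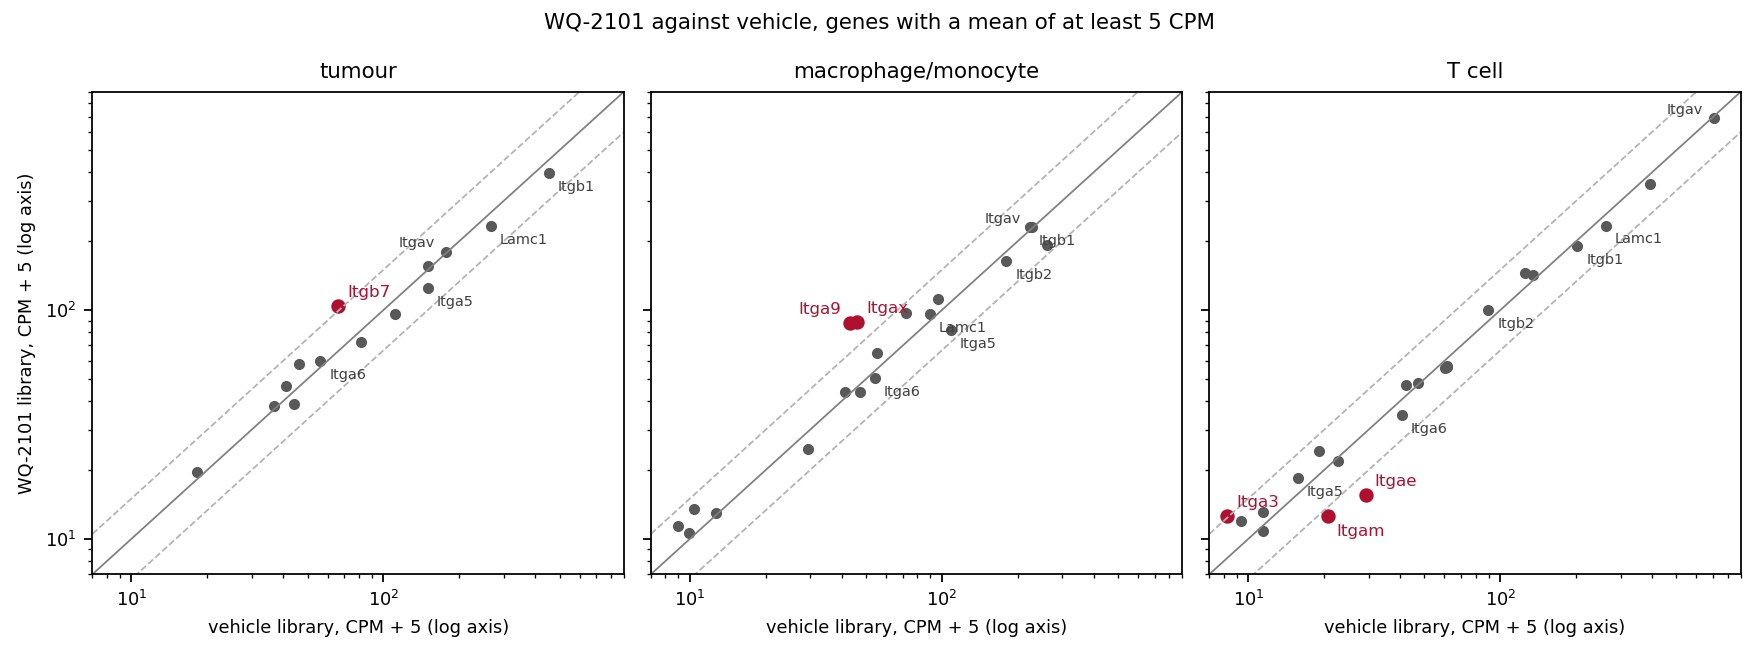
Level in the WQ-2101 library (vertical axis) against the vehicle library (horizontal axis), both as CPM plus 5 on log axes, for members reported here with a mean of at least 5 CPM in each of 3 classes. Solid lines mark equal levels and dashed lines 1.5-fold. Itgb7 in tumour cells and Itga9 and Itgax in macrophages lie past the upper dashed line, and low genes of T cells lie past both.

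In tumour cells the member past the fold was Itgb7, at 98.8 CPM in the WQ-2101 library (97.0 to 101) and 61.3 CPM in the vehicle library (59.9 to 62.7). The WQ-2101 library was the higher one, with a log2 ratio of 0.65 and a CPM ratio of 1.61 (1.57 to 1.66), just past 1.5-fold. The share of tumour cells with an Itgb7 UMI was 17.7% and 11.2% after thinning (62.1% and 54.7% unthinned). In the fibroblast gate 0 of 47 and 0 of 133 thinned cells had one. Free RNA was estimated at 7.43% and 5.06% of RNA in that gate. So few cells would catch little of it, and these counts did not test the part of free RNA. In the fibroblast cluster, of 246 and 267 cells, Itgb7 was 62.5 and 14.7 CPM, beside the tumour marker Hmga2 at 412 and 159 CPM, and the part of tumour RNA in it was not tested. Itga3, Itgb2 and Itgb4, among others, were also past 1.5-fold higher in WQ-2101 in this cluster. Itga5, Itga6, Itgb5, Lama2, Lama4 and Lamb1 were past it in the lower direction. Of the cells in this cluster 39.0% passed the fibroblast gate, and the macrophage marker C1qa was 133 and 36.3 CPM there. The share of all genes past the fold in this cluster is not given here, so these calls give no reading of the members. Across 8 tumour clusters made without the members' genes, Itgb7 stood higher in the WQ-2101 library in 8 and past 1.5-fold in 6, with log2 ratios from 0.28 to 0.73. The clusters are parts of the same 2 libraries and not replicates. Itga3, Itgax, Itgb5 and Lama5 were also higher in 8, though past 1.5-fold in 0. Itga5, Itgb1, Itgam and Itgb8, among others, were higher in 0. Other leukocyte chains in the same tumour cells were near 0, with Itgal at 1.02 and 0.65 CPM and Itgb2 at 3.36 and 3.32 CPM. Subtracting estimated free RNA (8.83% and 5.89% of tumour RNA) left the log2 ratio at 0.65. The profile subtracted was that of all cells of each library, with Itgb7 at 94.0 and 61.3 CPM. It was so near the tumour levels that the subtraction could hardly move the ratio, and the part of free RNA was not tested by it. The summed macrophage markers in these cells were 219.9 and 192 CPM, with all 13 detected in both libraries, and T cell markers were 12.8 and 6.96 CPM, with all 9 detected.

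The commonest chains of tumour cells stayed under 1.5-fold. Itgb1 was 392 and 448 CPM (log2 ratio -0.19), Lamc1 229 and 262 CPM (-0.19), Itga5 119.6 and 145 CPM (-0.27), Itgav 175 and 173 CPM (0.02) and Itga6 54.8 and 51.1 CPM (0.09).

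In macrophages and monocytes Itga9 and Itgax stood higher in the WQ-2101 library. Itga9 was 83.1 CPM (79.3 to 87.1) in WQ-2101 and 38.4 CPM (36.2 to 40.6) in vehicle, a log2 ratio of 1.02, and Gm2415 overlaps its span on the other strand. Itgax was 83.8 CPM (80.0 to 87.8) in WQ-2101 and 41.2 CPM (39.0 to 43.5) in vehicle, a log2 ratio of 0.94. After thinning, 11.6% and 6.19% of macrophages had an Itga9 UMI and 14.3% and 7.38% an Itgax UMI (23.7% and 17.0%, and 32.1% and 22.0%, unthinned). In tumour cells, which should lack both, the thinned shares were 0.253% and 0.0151% for Itga9 and 0.301% and 0.0909% for Itgax. The unthinned medians were 6161 and 7674 UMIs in macrophages and 13439 and 16591 UMIs in tumour cells.

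Both genes were past 1.5-fold higher in WQ-2101 in the C1q gate, the largest macrophage subset. C1q macrophages numbered 2457 and 2409, monocytes 201 and 562. In the C1q gate Itga9 was 101 and 54.1 CPM (log2 ratio 0.85) and Itgax 86.8 and 37.9 CPM (1.10). In the monocyte gate Itga9 was 5.30 and 1.46 CPM, from 5 UMIs in each library, and Itgax 56.2 and 39.2 CPM (0.47), under 1.5-fold. The remaining macrophages and monocytes, 618 and 736 cells, are not described on their own. With the macrophage sub-gates set to the same share in both libraries Itga9 had a log2 ratio of 0.85. Among 4 macrophage clusters both genes stood higher in WQ-2101 in all 4, with Itga9 past 1.5-fold in 3 and Itgax in 2. Itgb4, Itgb5 and Lama5, among others, were also higher in all 4, with Itgb4 past 1.5-fold in 1. The cluster numbered 13 had the largest Itgax difference, at 81.8 and 19.6 CPM, and the highest Itga9 level, at 157 and 85.9 CPM.

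**Figure D5:**
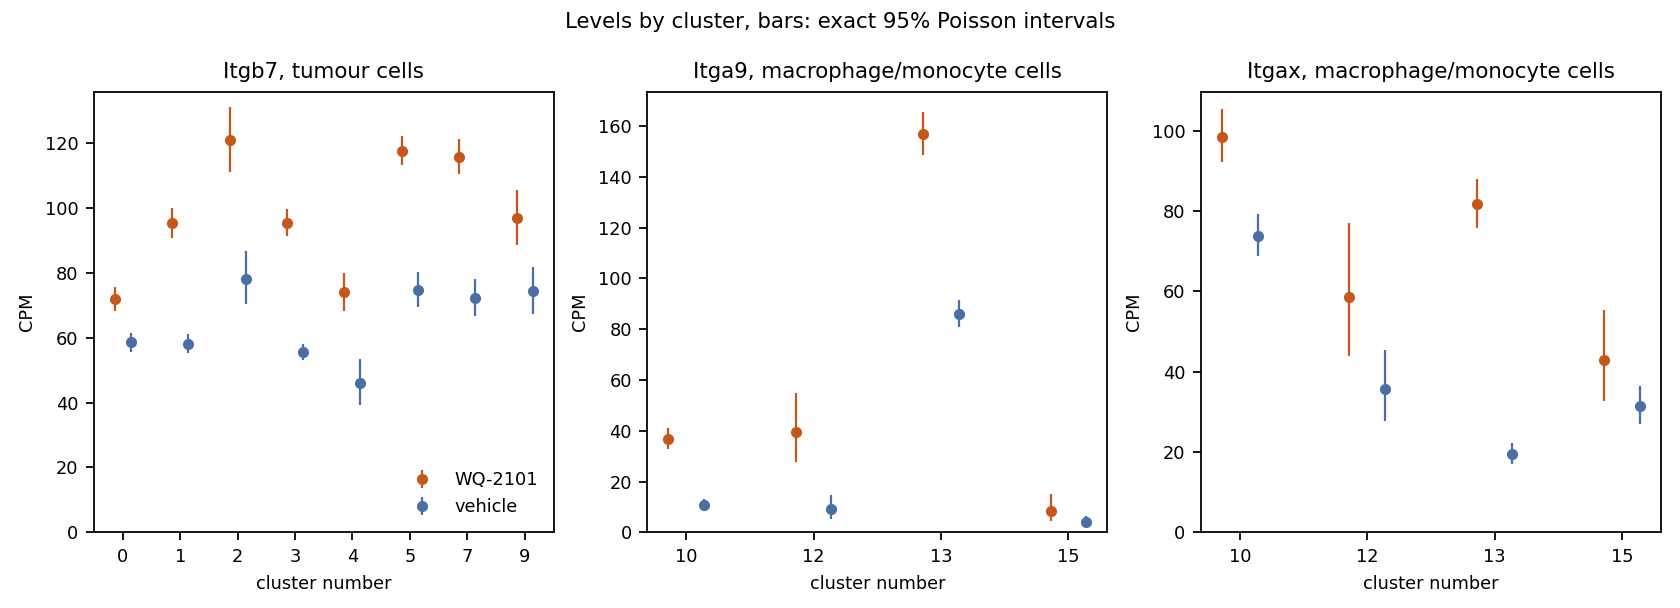
CPM of Itgb7 in 8 tumour clusters, and of Itga9 and Itgax in 4 macrophage clusters, with WQ-2101 points left of vehicle points and exact 95% Poisson intervals as bars. The WQ-2101 point is the higher one in every cluster shown, while the intervals overlap for Itgax in clusters 12 and 15 and for Itga9 in cluster 15.

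The main partner chains in macrophages did not follow. Itgb2, the partner of Itgax, was 159 and 175 CPM (log2 ratio -0.13), and Itgb1, the partner of Itga9, 225 and 219 CPM (0.04). Itgam stood at 187 and 256 CPM (-0.44) and was lower in WQ-2101 in 4 of 4 clusters, under 1.5-fold in each. Itga5 was 77.0 and 103 CPM (-0.40), Itgav 225 and 223 CPM (0.02), Itga6 45.4 and 49.3 CPM (-0.11) and Lamc1 90.8 and 84.5 CPM (0.10). Tumour markers in these macrophages summed to 158 and 181 CPM, with 9 of the 10 detected in each library.

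In T cells the calls rested on few UMIs. Itgae was 10.49 CPM (18 UMIs) in WQ-2101 and 24.2 CPM (45 UMIs) in vehicle, a log2 ratio of -0.92. Itgam, a myeloid chain, was 7.58 CPM (13 UMIs) and 15.6 CPM (29 UMIs), a log2 ratio of -0.71, and turned to 0.11 in T cell clusters. Itga3 was 7.58 CPM (13 UMIs) and 3.23 CPM (6 UMIs), with a ratio interval of 0.831 to 7.52 that includes 1. The summed macrophage markers in the same T cells were 873 and 982 CPM, with all 13 detected in both libraries, and tumour markers 161 and 132 CPM, with 6 of the 10 detected. Their part in the Itgam and Itga3 values was not tested. The abundant chains stood close together, with Itgav at 684 and 701 CPM (-0.03), Itgb1 at 185 and 197 CPM (-0.09), Itgb2 at 95 and 84.6 CPM (0.16), Lamc1 at 229 and 258 CPM (-0.17), Itga6 at 29.7 and 35.6 CPM (-0.22) and Itga5 at 13.4 and 10.8 CPM (0.22).

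The genes around the integrins were set beside these values by the same fold, to be read against the shares of all genes past it: 0.849% higher and 0.42% lower in tumour cells, 1.54% and 0.576% in macrophages, and 3.55% and 3.53% in T cells. A single call in a list of this size gives no reading of that list. Of the activation and adaptor genes, which link integrins to actin, 21 passed the minimum in tumour cells and 22 in macrophages, and 0 were past the fold in either. In T cells 2 of 22 were higher and 1 lower: Rasgrp2, an activator of Rap1, was 42.5 and 18.9 CPM, the kindlin Fermt2 9.33 and 2.15 CPM, and the tensin Tns3 5.83 and 15.1 CPM. Of the matrix ligands, 1 of 15 was higher and 0 lower in tumour cells, namely Tnc, the tenascin-C that Itga9 binds, at 66.2 and 34.9 CPM. In macrophages 2 of 11 were higher and 2 lower. Spp1, which encodes osteopontin, was 2129.7 and 3286 CPM, Fn1, fibronectin, 1227 and 2132 CPM, and Tgfb3 15.99 and 5.36 CPM. In T cells 1 of 11 matrix ligands was higher and 4 lower, with Thbs1 at 21.0 and 40.9 CPM the largest difference. Thbs1 was 362 and 498 CPM in macrophages. The part of macrophage or tumour RNA in the T cell values of these lists was not tested. Of the cell-surface counter-receptors, 0 of 3 were past the fold in tumour cells, 1 of 8 was higher in macrophages (C3, whose fragment iC3b is bound by beta2 integrins, at 77.0 and 36.3 CPM) and 1 of 8 lower in T cells (Icam1, the LFA-1 ligand, at 82.2 and 136 CPM). Among basement membrane partners 0 of 9 were past the fold in tumour cells, 1 of 3 was higher in macrophages (Sparc, 79.4 and 44.5 CPM) and 1 of 3 lower in T cells (Col18a1, 4.08 and 11.3 CPM). Other laminin receptors and tetraspanins had 0 of 12 in tumour cells, 0 of 13 in macrophages and 1 of 11 in T cells, the tetraspanin Cd81, at 52.5 and 95.4 CPM. The list medians of the log2 ratio ran from -0.14 to 0.04 in tumour cells, -0.17 to 0.40 in macrophages and -0.21 to 0.10 in T cells. The 0.40 belongs to the 3 basement membrane genes.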

How the data were processed

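Single cells of 1 WQ-2101 and 1 vehicle library were used. The authors deposited raw UMI counts per gene and barcode; the file headers give Cell Ranger 7.2.0 as their source. The submitters' processing notes list 2.2.2 as the version, and GRCm38 as the build. The annotation release, intron counting and any free RNA correction were not stated.

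Barcodes with fewer than 500 UMIs or 300 genes, or over 15% mitochondrial UMIs, and Scrublet doublets were removed. Cells were gated on marker genes that include no member, with limits on tumour and macrophage RNA in other classes. The tumour gate used Hmga2, Tnfrsf12a, Phgdh and Igf2bp2, with at least 2 of them detected. Phgdh encodes the enzyme that WQ-2101 inhibits, and whether treatment changed which cells passed the gate was not tested. Counts were summed per class and library, and classes were ranked with at least 50000 UMIs in each library. Intervals are exact 95% Poisson (levels), exact conditional binomial (ratios) or Clopper-Pearson (shares). For shares, cells were thinned to 2000 UMIs. Leiden clusters were made without the members. Promoters came from RefSeq, on GRCm38.p6. The fold computation was tested on simulated data. The work used Python 3.11.15, numpy 2.4.6, scipy 1.17.1, pandas 2.3.3 and scanpy 1.11.5.

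Members are described with values at 20 CPM in a class of at least 100 cells in each library. Between libraries, members past 1.5-fold (CPM plus 5, mean of at least 5 CPM) are named, with Itgb1, Itgb2, Itgav, Itga6, Itga5 and Lamc1 and up to 3 genes per pathway list; smaller classes, sub-gates and further members were named after their values were seen. The members and lists were chosen with earlier results of these data known, and the gate thresholds and usable markers were set after the data were seen. Of the members, 1 is counted in the totals but not reported here.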

Additional observations from a re-analysis of the deposited data

How the results depend on the processing

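Itgb7 in tumour cells kept its direction under all 9 alternatives, with log2 ratios from 0.65 to 0.68, as did Itga9 (0.85 to 1.10) and Itgax (0.83 to 1.10) in macrophages under 11. Free RNA subtraction, among the 9, could hardly move the Itgb7 ratio. The count of members past the fold depended on the settings. At 2-fold it was 0 in tumour cells, 1 in macrophages (Itga9) and 0 in T cells. In T cells it was 3 as reported, 1 in Leiden clusters, 1 with a mean over cells, 0 with a mean of at least 20 CPM and 0 with mixed cells added. Adding mixed cells made the macrophage count 5, among them Itga9, Itgax, Itgb4 and Itgbl1. That setting added 576 WQ-2101 and 176 vehicle cells to macrophages. Itgam in T cells turned to 0.11 in Leiden clusters and 0.058 with a mean over cells; the cause was not tested. Itgae in T cells ranged from -1.37 to -0.55. Of the named values 256 were labelled as held, 25 as moved and 2 as reversed. The label reversed was not given to every change of sign. In T cells the log2 ratio ran from -0.04 to 0.85 for Itga5 and from -0.06 to 0.42 for Itgb2. That of Lamc1 there ran from -0.20 to 0.06. Itgav crossed 0 in each compared class, with -0.05 to 0.03 in tumour cells. Others kept their sign, such as Itgb1 in tumour cells (-0.26 to -0.17). The 4 alternatives with C1q macrophages alone, sub-gates at equal shares, CD8 T cells alone and mixed cells were chosen after seeing the data.

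No paired analysis was possible because each group had 1 library, which also allows no leaving out of a replicate. The library and the treatment cannot be told apart. Depth limits T cells and the stromal gates, where a level can rest on a few UMIs.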
